A study of Mus musculus with 6 samples.

Results

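The 10 genes described here are general and resident macrophage markers: Adgre1, Cd68, Csf1r, Itgam, Mrc1, Aif1, Mpeg1, Cx3cr1, Ccr2 and Ms4a6d. They were measured in eWAT, the white fat pad that lies along the epididymis. The genes were chosen by name from the 22180 genes that the platform annotation pairs with a row of their own, and each of the 10 had 1 row. The study hybridised 6 Affymetrix whole-transcript arrays. There were 3 from wild-type (WT) mice (WT 1 to WT 3) and 3 from transgenic mice (Tg 1 to Tg 3) in which Blnc1, a long noncoding RNA known from thermogenic fat, is carried as an adipose-specific transgene. Both groups were male C57BL/6 mice of 8 months that had eaten the high-fat diet D12492 for 21 weeks, so there was no lean control. The promoter of the transgene, the number of founder lines and whether WT mice were littermates are details that the sources used here do not give. The replicates are numbered and called biological in the labels. If they were not separate animals, the p-values measure only the spread between these samples.

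Macrophages are the main immune cells of fat. Their survival depends on signalling through the receptor that Csf1r encodes, and in obesity circulating monocytes that carry Ccr2 enter the tissue and add to the cells already resident there. Surface markers such as Adgre1 and Itgam are used to count them, and Mrc1 is commonly used for the resident, tissue-supporting state. In whole tissue a lower signal can have several causes, among them fewer cells and less RNA per cell, and these cannot be told apart here.

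All 10 markers gave a signal, at the 68.9th percentile of all rows or above. On the log2 scale the array medians were 2.68, 2.75 and 2.72 in WT and 2.64, 2.67 and 2.64 in Tg, so they too were lower in Tg. The adipocyte genes Adipoq (9.21 to 10.40) and Fabp4 (12.19 to 12.38) were high on all 6 arrays. Of the markers, 8 were lower in Tg and 7 of these had every Tg array below every WT array. After median centring of the arrays, the same 8 were lower and 4 (Adgre1, Csf1r, Itgam and Ms4a6d) had groups apart. The 2 chemokine receptor genes, Ccr2 and Cx3cr1, were not lower. None of the 10 passed the threshold of an adjusted p of 0.05 in limma, and 3 (Ms4a6d, Adgre1 and Itgam) had an unadjusted p under 0.05.

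Over all 41345 rows, limma called 0% at the adjusted threshold. At an unadjusted p under 0.05, 5.88% of rows were lower in Tg, beside the 3 of 10 markers. Tg was below WT in 52.8% of rows, beside 8 of 10 markers, and with the groups apart in 9.35% of rows, beside 7 of 10. Among the 3001 rows with a mean of 8 or above, a level chosen after the values were seen, 14.4% were lower with groups apart. The median difference, Tg minus WT, was -0.30 over the 10 markers and -0.01 over all rows. After median centring of the arrays it was -0.23 over the markers and 0.05 over all rows. With 3 arrays against 3, an exact 2-sided permutation test cannot give a p below 0.1, which is the value for any gene whose groups are apart.

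Macrophage genes are known to depend on PU.1, a transcription factor of the ETS family encoded by Spi1, which binds purine-rich sites such as GAGGAA. The 250 bases before the transcription start were taken for the 7 markers that RefSeq's promoter table holds (GRCm38.p6). GAGGAA on either strand was found for 4 of them, Itgam, Mrc1, Cd68 and Aif1, and in 23.3% of all 32851 windows of that length in the table. The letters were not found for Mpeg1, which was lower in Tg with groups apart (-0.36), nor for Ccr2 and Cx3cr1. Adgre1, Csf1r and Ms4a6d have no window in that table. Whether the letters go with a lower signal was not tested. Shown 5′ to 3′ along the gene are 3 windows of markers that were lower in Tg with groups apart, and that of Cx3cr1, which was not lower. Capitals mark GAGGAA, or TTCCTC where it lies on the other strand.
Itgam (chr7:128062390-128062639, plus strand): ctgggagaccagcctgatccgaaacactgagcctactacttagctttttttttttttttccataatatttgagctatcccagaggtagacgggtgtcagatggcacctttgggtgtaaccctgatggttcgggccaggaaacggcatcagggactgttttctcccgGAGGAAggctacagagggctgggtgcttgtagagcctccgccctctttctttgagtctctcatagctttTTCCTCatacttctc
Mrc1 (chr2:14229164-14229413, plus strand): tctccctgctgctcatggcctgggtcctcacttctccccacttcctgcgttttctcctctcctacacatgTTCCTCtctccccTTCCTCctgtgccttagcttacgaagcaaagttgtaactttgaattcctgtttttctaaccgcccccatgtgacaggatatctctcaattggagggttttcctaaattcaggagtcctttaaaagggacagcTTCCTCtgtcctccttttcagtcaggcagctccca
Cd68 (chr11:69666171-69666420, minus strand): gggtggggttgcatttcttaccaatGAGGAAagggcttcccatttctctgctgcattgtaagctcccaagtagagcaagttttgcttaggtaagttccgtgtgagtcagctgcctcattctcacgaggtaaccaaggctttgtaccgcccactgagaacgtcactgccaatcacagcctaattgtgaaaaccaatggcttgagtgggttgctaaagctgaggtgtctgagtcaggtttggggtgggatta
Cx3cr1 (chr9:120068297-120068546, minus strand): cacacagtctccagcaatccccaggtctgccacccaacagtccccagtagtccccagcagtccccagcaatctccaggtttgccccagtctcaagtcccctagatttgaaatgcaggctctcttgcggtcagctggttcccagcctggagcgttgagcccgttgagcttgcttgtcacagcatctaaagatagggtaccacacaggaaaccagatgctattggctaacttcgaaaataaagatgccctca
In Mrc1 the letters begin 180, 167 and 35 bases before the start, in Itgam 84 and 15, in Cd68 225 and in Aif1 7. A match is a description of the sequence and not a measured site.

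Adgre1 encodes the adhesion receptor that defines mature mouse macrophages. In the order of the replicate numbers, WT read 10.16, 10.15 and 10.19 and Tg read 9.59, 9.71 and 9.87. The WT arrays lay within 0.04 of each other, and the highest Tg array stood 0.28 below the lowest WT array. The difference was -0.45 ± 0.11 (SE), or 26.6% lower in Tg, with a 95% interval of -0.70 to -0.19 and a limma adjusted p of 0.337.

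Itgam encodes the alpha M chain of a leukocyte integrin that binds complement fragments and ICAM-1. Its WT signals were 9.75, 9.78 and 9.71 and its Tg signals 8.99, 9.54 and 9.49. Tg 1 was far below the other arrays, and the groups were apart by 0.17. The difference was -0.41 ± 0.16 (95% interval -0.80 to -0.02, limma adjusted p 0.467), and it was -0.23 without Tg 1. Itgb2, the gene of the beta chain that pairs with it, read 10.59, 10.81 and 10.73 in WT and 10.06, 10.50 and 10.36 in Tg. That is a difference of -0.40 ± 0.14, again with Tg 1 lowest.

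Ms4a6d encodes a tetraspan membrane protein of myeloid cells and had the smallest p of the 10. It read 8.41, 8.58 and 8.38 in WT and 7.68, 7.90 and 7.86 in Tg. The groups stood 0.47 apart, more than for any other marker. Tg was lower by -0.64 ± 0.11, or 35.7%, with a 95% interval of -0.91 to -0.37. The limma adjusted p was 0.325.

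**Figure D1:**
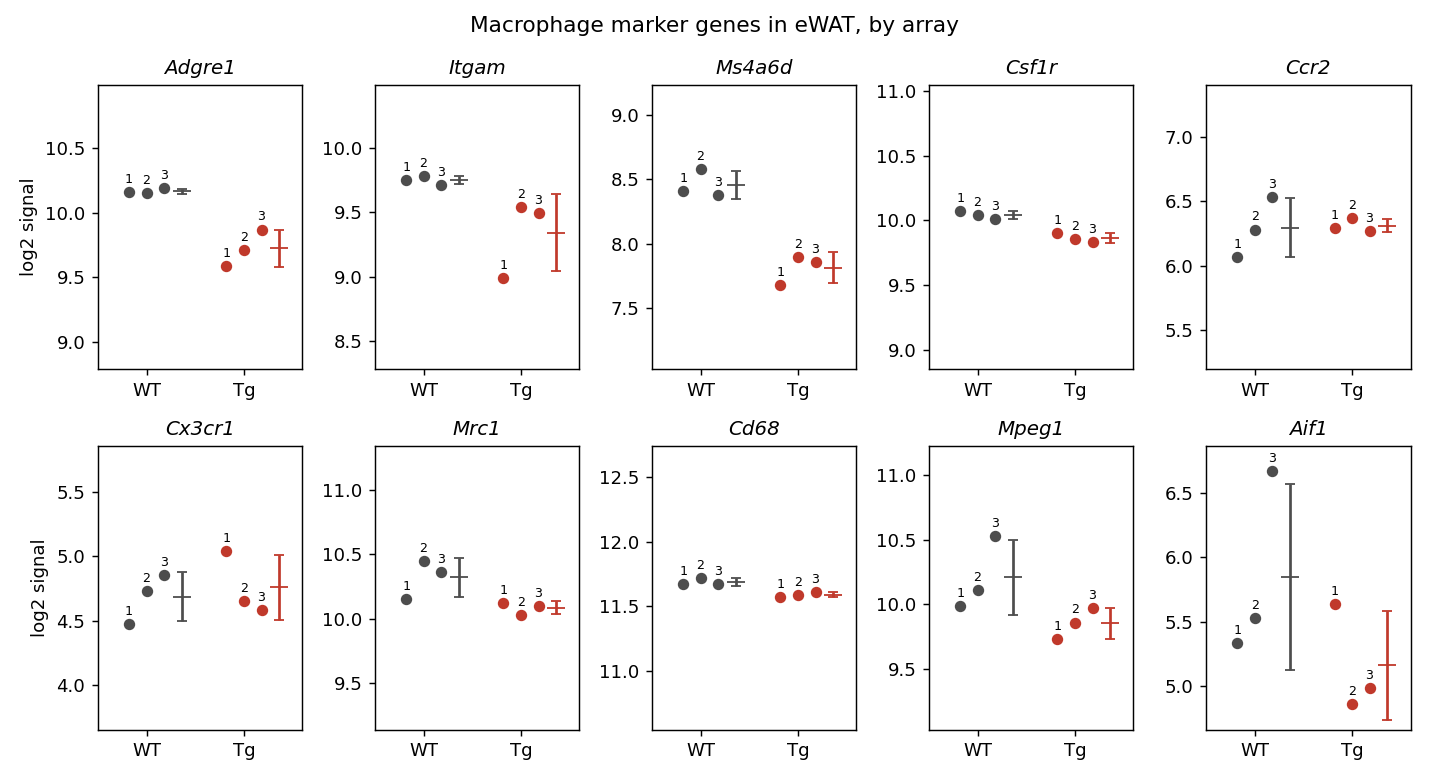
Log2 signal (vertical axis, each panel spanning the same range) of the 10 macrophage markers on each array, numbered by replicate, with the group mean and SD beside the points (n = 3 per group). In 7 panels every Tg point lies below every WT point, and in Ccr2, Cx3cr1 and Aif1 the groups overlap.

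Csf1r encodes the receptor for CSF1 and IL-34, on which macrophage survival depends. Its signals were 10.07, 10.04 and 10.01 in WT and 9.90, 9.86 and 9.83 in Tg. Both groups were tight, with SDs of 0.03 and 0.04, and lay 0.11 apart. The difference was only -0.18 ± 0.09, or 11.5% lower in Tg (95% interval -0.39 to 0.04, limma adjusted p 0.545). Its ligand genes overlapped between the groups: Csf1 differed by 0.10 ± 0.10 and Il34 by -0.10 ± 0.11.

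Ccr2 encodes the receptor that draws monocytes out of the blood. It read 6.07, 6.28 and 6.53 in WT and 6.29, 6.37 and 6.27 in Tg. The Tg arrays sat inside the WT range. The difference of 0.02 ± 0.14 had a 95% interval of -0.31 to 0.34, so a change as large as that of Adgre1 downward lay outside it while one as large as that of Csf1r lay within it. Its ligand genes showed no common direction. Ccl2 (0.32 ± 0.19) and Ccl7 (0.20 ± 0.19) were higher in Tg, and Ccl8 (-1.08 ± 0.54) and Ccl12 (-0.86 ± 0.37) lower, all with overlapping groups. In Ccl8, WT 3 stood at 7.40 and the other arrays between 4.79 and 6.11, and the difference was -0.52 without WT 3. In WT 1 against Tg 1 and Tg 3, the 3 arrays with the least signal from reproductive tract genes, Ccl8 differed by -0.02 and Ccl12 by -0.03.

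Cx3cr1 encodes the fractalkine receptor of patrolling monocytes and some tissue macrophages, and had the lowest percentile of the 10. It read 4.47, 4.73 and 4.85 in WT and 5.04, 4.65 and 4.58 in Tg. Tg 1 was the highest array and WT 1 the lowest, and the other 4 lay between 4.58 and 4.85. The difference was 0.07 ± 0.17 (95% interval -0.33 to 0.47, limma adjusted p 0.913). Cx3cl1, the gene of its ligand, was lower in Tg by -0.38 ± 0.14 with groups apart, at 4.59, 4.83 and 4.77 in WT and 4.59, 4.25 and 4.19 in Tg, where Tg 1 and WT 1 are equal to 2 decimals and the groups overlapped under each of the 3 other normalizations. Its limma adjusted p was 0.446.

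Mrc1 encodes the mannose receptor, an endocytic lectin of resident macrophages. Its signals were 10.15, 10.45 and 10.36 in WT and 10.12, 10.03 and 10.10 in Tg. WT 1 was close to the Tg arrays, and the groups were apart by 0.03 only. The difference was -0.24 ± 0.11 (95% interval -0.51 to 0.03, limma adjusted p 0.523). Endothelial cells can also express Mrc1. The 8 endothelial markers were all higher in Tg, with summed linear signals of 3631 to 4206 in Tg and 2521 to 3534 in WT, although 3 of the 8 were lower when Tg 1 and Tg 3 were set against WT 1 alone.

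Cd68 encodes macrosialin, a glycoprotein of the late endosome, and stood at the 99.8th percentile of all rows. It read 11.67, 11.72 and 11.67 in WT and 11.57, 11.59 and 11.61 in Tg. The groups were apart, by 0.06. The difference of -0.10 ± 0.09, or 6.44%, was the smallest among the 8 lower markers (95% interval -0.31 to 0.11, limma adjusted p 0.736).

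Mpeg1 encodes perforin-2, a pore-forming protein that acts on engulfed bacteria. WT read 9.99, 10.11 and 10.53 and Tg 9.73, 9.86 and 9.97. WT 3 stood above the rest, and WT 1 and Tg 3 differed by 0.02. The difference was -0.36 ± 0.16 (95% interval -0.75 to 0.04, limma adjusted p 0.521) and -0.20 without WT 3.

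Aif1 encodes a calcium-binding protein that bundles actin in activated macrophages. It read 5.34, 5.53 and 6.67 in WT and 5.64, 4.86 and 4.99 in Tg. WT 3 was more than 1 unit above every other array, Tg 1 exceeded WT 1 and WT 2, and the groups overlapped. Its difference, the most negative of the 10 at -0.69 ± 0.39, therefore had the widest interval (-1.62 to 0.25, limma adjusted p 0.586) and was -0.27 without WT 3.

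**Figure D2:**
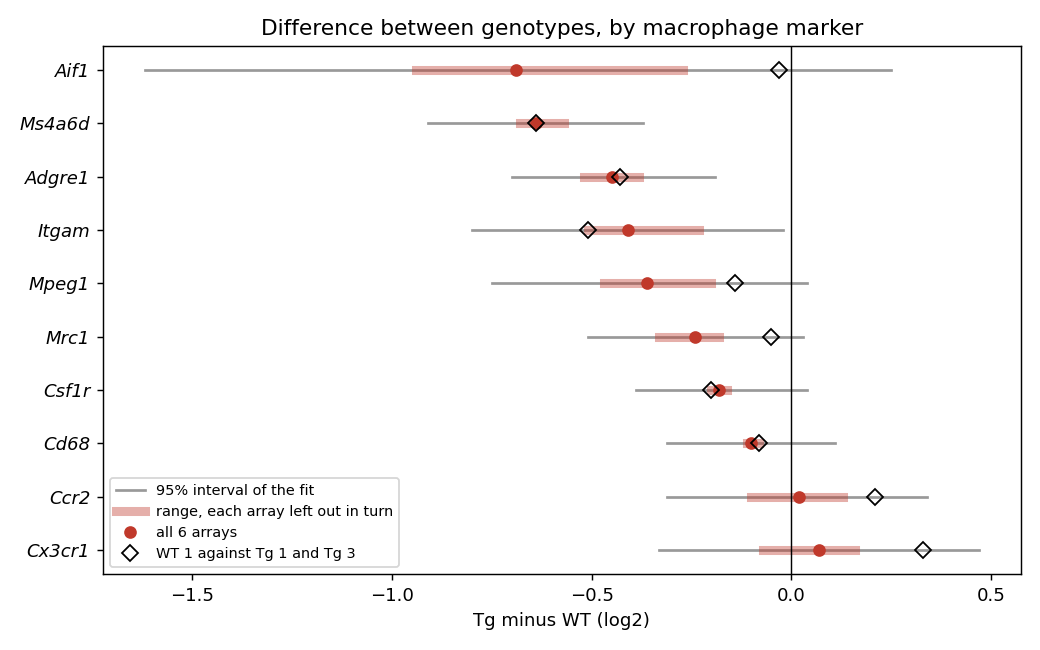
Tg minus WT on the log2 scale (horizontal axis) for each marker: all 6 arrays (filled points), the 95% interval of the limma fit (grey lines), the range when each array is left out in turn (red bars), and WT 1 against Tg 1 and Tg 3 (open diamonds). Ms4a6d (-0.64), Adgre1 (-0.45) and Itgam (-0.41) have intervals below 0, and the diamonds of Aif1 (-0.03) and Mrc1 (-0.05) lie near 0.

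Transcripts of the reproductive tract were present on some arrays. Of 15 measured epididymis and vas deferens genes, 11 read 4 or above in Tg 2, 2 in WT 2 and in WT 3, and 1 in each other array. Sult1e1, at 6.55 to 7.21 on all arrays, is in each of these counts. The epididymal gene Gpx5 read 10.77 in Tg 2 and between 0.95 and 3.22 elsewhere. In WT 2 and WT 3 the tract gene Spink8 read 6.55 and 8.09, against 1.16 to 2.53 in the other arrays. WT 1, Tg 1 and Tg 3 are called the arrays without tract signal here, a split that no label gives. Gpx5 still read 3.22 in Tg 1, against 0.95 in WT 1 and 0.97 in Tg 3. WT 1 against Tg 1 and Tg 3 gave -0.64 for Ms4a6d, -0.43 for Adgre1, -0.51 for Itgam, -0.20 for Csf1r and -0.08 for Cd68. These values are close to those of all arrays. Mpeg1 (-0.14), Mrc1 (-0.05) and Aif1 (-0.03) were smaller there, and Ccr2 (0.21) and Cx3cr1 (0.33) higher. The median of the 10 was -0.11, and 8 were still lower, but this comparison has a single WT array. Between the arrays with tract signal, WT 2 and WT 3 against Tg 2 as the single Tg array, all 10 were lower and the median was -0.29. The tract signal was not alike in these arrays: Gpx5 read 10.77 in Tg 2, 1.20 in WT 2 and 1.07 in WT 3. For the 7 markers with groups apart, the direction was fixed in advance in both comparisons.

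The markers did not move by equal amounts within an array. Relative to the mean of the other 9 markers on the same array, Ms4a6d was lower in every Tg array (-0.35, -0.08 and -0.14) than in every WT array (0.29, 0.33 and -0.06). Cd68, Ccr2 and Cx3cr1 were relatively higher in every Tg array. For Ccr2 these relative values were 0.15, 0.25 and 0.12 in Tg and -0.27, -0.18 and -0.07 in WT, and for Cx3cr1 0.51, 0.10 and 0.00 against -0.29, -0.14 and -0.18. The profile of Itgam over the 6 arrays was closest to that of Adgre1 among the markers, with a root mean square distance of 0.129 log2 units, and so was that of Ms4a6d, at 0.133. These distances are below the root mean square swing of each gene around its own mean, 0.270 for Itgam and 0.332 for Ms4a6d. Csf1r and Cd68 were 0.058 apart, but both profiles were flat, with swings of 0.0923 and 0.0526. Aif1 swung by 0.591, and its nearest marker was Mpeg1 at 0.427.

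Averaged over the 10 markers, each taken relative to its own mean, the arrays stood at 0.01, 0.14 and 0.29 in WT and at -0.14, -0.16 and -0.14 in Tg. The 3 Tg arrays were thus nearly level and the WT arrays spread. Of 12778 other genes with a mean at or above the median of all rows, the 6 nearest to this profile were Mkrn1 (root mean square distance 0.0298), Map3k8 (0.0362), Fnbp1, Polr3e, Ostf1 and Fbxo5 (0.0395), picked for that likeness over 6 arrays. Nearest to Adgre1 alone were Rap2b (0.0338), Fbxo32 (0.0447) and Tlr1 (0.0495).

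All 20 genes in a list of further macrophage genes were lower in Tg, 14 with groups apart, with a median of -0.29. After median centring of the arrays, all 20 were still lower and 10 had groups apart. Among the 20, 12 had an unadjusted p under 0.05 and 0 an adjusted p at the threshold. Ncf1, a subunit of the phagocyte oxidase, differed by -0.61 ± 0.15, C1qc, a complement chain, by -0.47 ± 0.14 and Msr1, a scavenger receptor, by -0.46 ± 0.14. In the arrays without tract signal 17 of the 20 were lower, and the median was -0.20.

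Genes that mark resident, tissue-supporting macrophages had no common direction, although Mrc1 belongs with them by function. Of 13 measured, 6 were lower and 7 higher in Tg, with a median of 0.03. Cd163, the haemoglobin scavenger receptor, read 6.59, 6.39 and 6.60 in WT and 7.36, 6.96 and 7.19 in Tg. Every Tg array was above every WT array, a difference of 0.64 ± 0.14 opposite to that of the markers (limma adjusted p 0.326), and 0.69 in the arrays without tract signal. Relative to the mean of the 10 markers, Cd163 stood at -0.27, -0.60 and -0.54 in WT and 0.66, 0.27 and 0.48 in Tg. Because Cd163 was apart upward and that mean apart downward, the groups could only be apart in these relative values. The lectin gene Clec10a was lower by -0.38 ± 0.16 with groups apart, which overlapped after median centring, and F13a1, the factor XIII A chain, read 0.30 ± 0.16 with groups overlapping. Folr2, at 10.25 to 10.79, was lower by -0.23 ± 0.13 with groups apart, which also overlapped after median centring. In the arrays without tract signal Folr2 differed by -0.50, and 6 of the 13 were lower with a median of 0.11. None of the 13 passed the adjusted threshold. Whether this list and the markers differ was not tested.

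Monocyte genes overlapped between the groups in all 12 measured, 8 of them lower in Tg, with a median of -0.12. Itgal (-0.91 ± 0.33), Plac8 (-0.72 ± 0.33) and Treml4 (-0.45 ± 0.21) had the smallest p. Plac8 read -0.37 without WT 3 and Treml4 -0.25 without Tg 2, and in the arrays without tract signal Itgal read -0.23, Treml4 -0.18 and Plac8 0.02. Of 12 transcription and growth factor genes of the lineage, 9 were lower, 3 with groups apart, and 1, Klf4, was higher with groups apart. After median centring 1 of the 12 was lower with groups apart. Tfec, a factor of macrophages related to MITF, differed by -0.89 ± 0.22, Irf8 by -0.38 ± 0.17 (-0.25 without WT 3) and Mitf by -0.22 ± 0.12 (-0.12 without Tg 1). Spi1, which encodes PU.1, read 8.49, 8.38 and 8.66 in WT and 7.91, 8.65 and 8.36 in Tg. Only Tg 1 was clearly low, and the difference was -0.20 ± 0.20. Among the 8 measured ligand genes of the markers, 5 were lower with a median of -0.17, and Icam1, the ligand of the integrin that Itgam forms, differed by -0.25 ± 0.15.

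**Figure D3:**
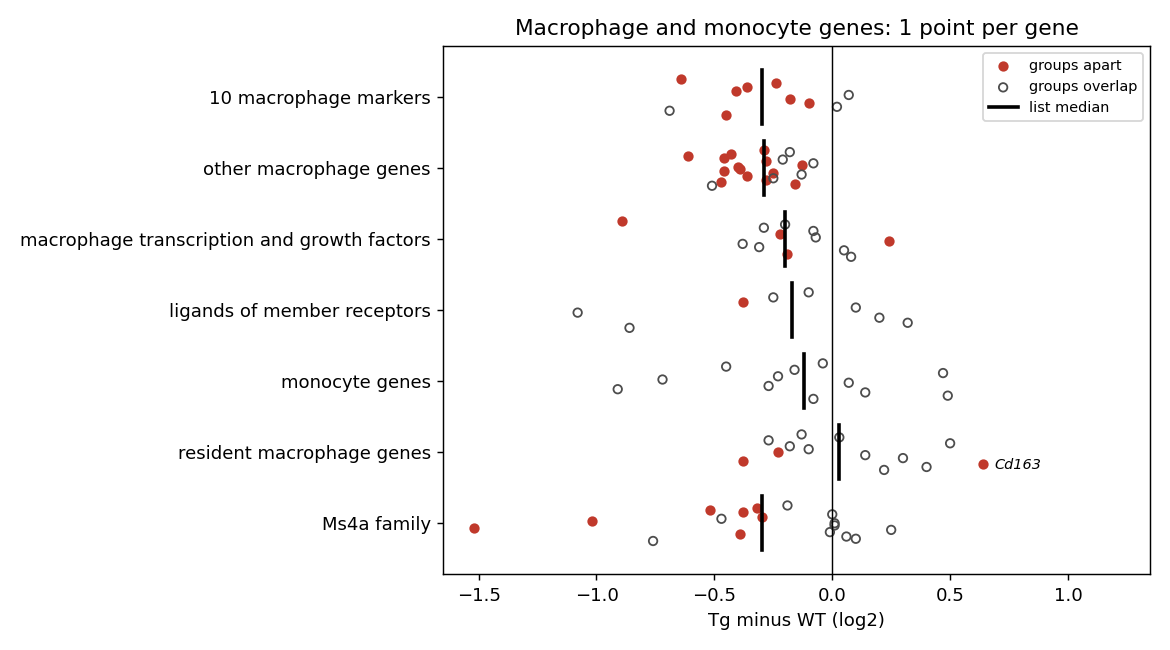
Tg minus WT on the log2 scale (horizontal axis), 1 point per gene, for the 10 macrophage markers and 6 related lists; filled points are genes whose groups do not overlap, and black lines are list medians. The median is -0.30 for the markers, -0.29 for the further macrophage genes and 0.03 for the resident macrophage genes, with Cd163 at 0.64.

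Ms4a6d lies in a cluster of Ms4a genes, and several of its relatives were lower too. Ms4a6c differed by -0.52 ± 0.19, Ms4a6b by -0.38 ± 0.15, Ms4a7 by -0.32 ± 0.12, Ms4a14 by -0.39 ± 0.13 and Ms4a4d, the nearest family member on one side of Ms4a6d, by -0.30 ± 0.10, all with groups apart. Ms4a4a read 7.46, 7.31 and 6.87 in WT and 7.05, 7.27 and 7.35 in Tg, a difference of 0.01 ± 0.18. On the other side lies Ms4a2, a chain of the mast cell IgE receptor, at -1.52 ± 0.40, and the lymphocyte gene Ms4a4b differed by -1.02 ± 0.34. Without the arrays with tract signal these were -0.71 and -0.41. Over the 17 family members measured, 11 were lower (10 to 12 under the other normalizations) and 7 had groups apart, all downward (4 after median centring of the arrays). The count includes 6 members that read between 0.69 and 1.93 on every array, at the bottom of the scale, and 5 of the 6 that were not lower are among them. The adjusted threshold was passed by 0. Ms4a6b and Ms4a6c reached -0.05 and -0.16 in the arrays without tract signal, where Ms4a6d read -0.64. Whether probes of these similar genes bind each other's transcripts was not tested.

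Markers of other cell types moved with the groups as well. Adipocyte markers were higher in Tg in all 9 measured, with summed linear signals of 16831 to 19467 in Tg and 13870 to 16242 in WT. Neutrophils also express Itgam, and 6 of 8 neutrophil markers were lower, with sums of 63 to 76 in Tg and 92 to 114 in WT. These sums rest mostly on 1 gene, Csf3r, with means of 6.13 in WT and 5.62 in Tg. The neutrophil granule gene Camp and the neutrophil surface antigen gene Ly6g were near the bottom of the scale, between 0.51 and 1.59. S100a9, Mmp8, Ngp and Retnlg were low too, between 0.79 and 2.74. All 8 mast cell markers were lower, with sums of 612 to 868 in Tg and 1263 to 2432 in WT. T and NK cells can express Ccr2, Cx3cr1 and Aif1. Their 8 measured markers were all lower, with sums of 177 to 295 in Tg and 176 to 786 in WT, highest in WT 3, where Aif1, Ccr2 and Mpeg1 were highest too. No gene of this list had groups apart, and in the arrays without tract signal 1 of the 8 was lower and the median turned from -0.87 to 0.35. Dendritic cell markers were lower in 5 of 7, with sums of 145 to 161 in Tg and 161 to 227 in WT. B cell markers were lower in all 5, and eosinophil markers in 3 of 5. Neither the dendritic nor the B cell list held a gene with groups apart. The eosinophil list held 1, Ccr3, at 5.37 to 6.35. Ccr3 differed by -0.67 ± 0.16, and by -0.68 in the arrays without tract signal. The other genes of that list read between 0.96 and 3.33. In the arrays without tract signal 3 of the 7 dendritic cell markers were lower (median 0.31 against -0.16), 1 of the 5 B cell markers (0.11 against -0.63) and 2 of the 5 eosinophil markers (0.02 against -0.20). The part of these cells in the markers' differences was not tested. Adipose progenitor markers had a median of -0.03 over 7 genes, and mesothelial markers 0.08 over 6.

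**Figure D4:**
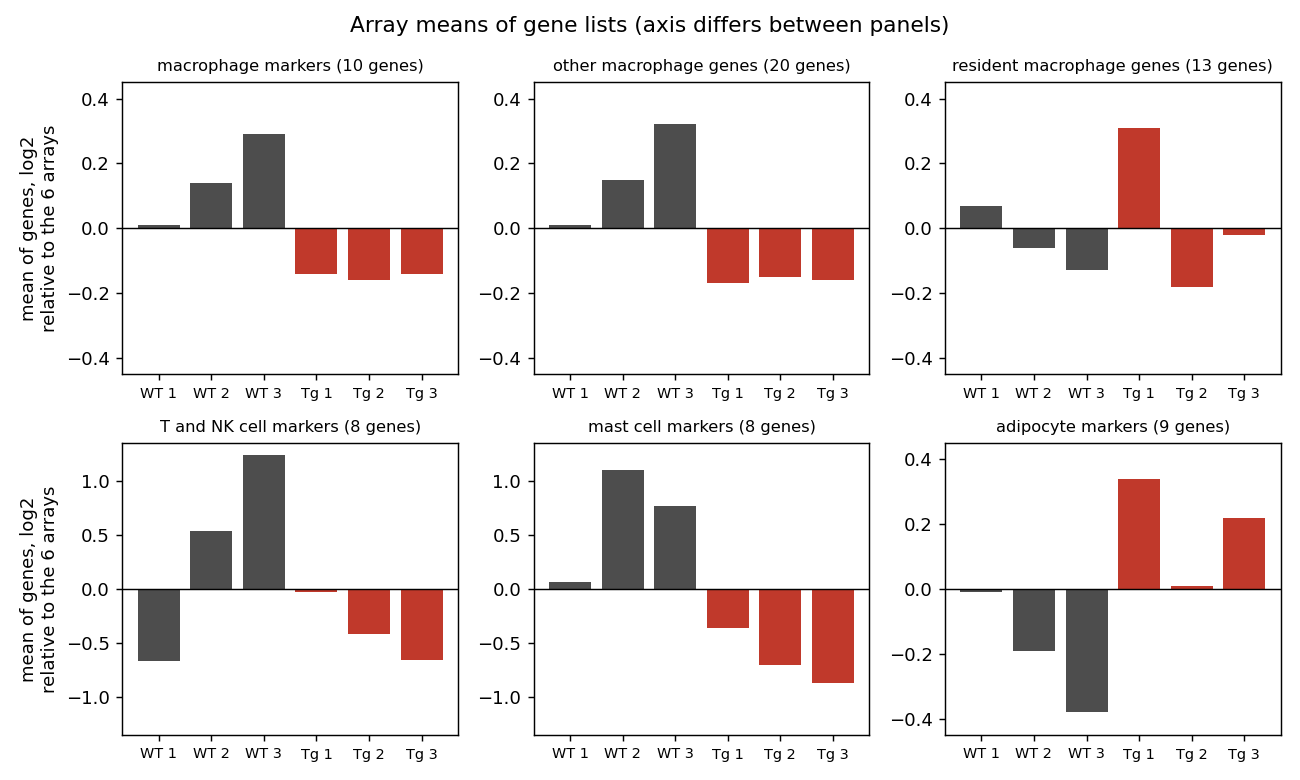
Mean of each gene list on each array, in log2 units relative to the 6-array mean of each gene (vertical axis; its range differs between panels), with WT in grey and Tg in red. The markers and the further macrophage genes have WT 1 at 0.01, above all 3 Tg arrays, and WT 3 highest. The T and NK cell list orders the WT arrays in the same way, with WT 1 at -0.67, the lowest of its 6 arrays.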

How the data were processed

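Per the labels, biotin-labelled total RNA of 6 eWAT samples was put on Affymetrix whole-transcript arrays. The deposited values are log2 signals made by the authors with RMA (background correction, normalization between arrays and probe summary), per the submitters' processing notes, which also name limma. The sources used here give no version, setting or build. Because the arrays were normalized to each other, a change in total RNA cannot be seen, and differences between low signals are compressed. The number of arrays limits the precision.

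Of 41345 rows, 23521 named 1 gene in the platform annotation. For each gene the brightest row was used. Tg was compared with WT over all rows with limma 3.58.1 in R 4.3.3 (lmFit, eBayes, 2-sided, no filter, no covariate), with Benjamini-Hochberg adjustment over all rows and a threshold of 0.05. On simulated normal values the procedure recovered 53% of 100 rows changed 2-fold and 97% of 100 changed 4-fold, with 6 false calls. Smaller changes were not simulated, and the largest fold among the markers was 1.61, for Aif1. Summed signals are sums of 2 to the power of the log2 values.

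The markers, the 18 other lists and the alternatives were chosen with earlier results of these data known. Of their 196 entries, 179 matched a row by symbol or by a synonym of 1 gene. The text names all 10 markers, from each macrophage list the 3 genes with the smallest p, the ligands and the Ms4a relatives, and by smallest profile distance 6 genes for the markers and 3 for Adgre1. The genes named for other cell types were chosen after their values were seen: Adipoq, Fabp4, Gpx5, Spink8, Camp, Ly6g, Csf3r, S100a9, Mmp8, Ngp, Retnlg and Ccr3. So were Itgb2, Klf4, Spi1 and Folr2. The smallest p belonged to Ccr7, Cd209a and Xcr1 among dendritic cell markers, to Retnlg, Csf3r and Cxcr2 among neutrophil, Ccr3, Prg2 and Il5ra among eosinophil, Cma1, Mcpt4 and Tpsb2 among mast cell, Cd3g, Cd3e and Nkg7 among T and NK cell, Ighm, Ms4a1 and Cd79a among B cell, Retn, Adipoq and Lipe among adipocyte, Dcn, Dpp4 and Col1a1 among progenitor, Lyve1, Cdh5 and Kdr among endothelial, Krt19, Upk3b and Lrrn4 among mesothelial, and Sult1e1, Ces5a and Spink8 among tract markers. Of the blood list 1 gene, Slc4a1, was matched. Promoter sequences are RefSeq's for GRCm38.p6. A comparison of Ms4a6 proteins was not run. Alternatives left out arrays, used the replicate number as a block, another normalization or a filter, and changed the variance model and thresholds.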

Additional observations from a re-analysis of the deposited data

How the results depend on the processing

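Under all 17 alternatives run for each marker, the 8 markers lower in Tg kept that direction, and none of the 10 passed the adjusted threshold. For the 7 with groups apart, leaving out or weighting arrays could not have turned the direction. The block, the filters, the averaging of rows and the variance model leave a difference as it is. Only the 3 other normalizations could therefore have turned these 7. The count lower in Tg ranged from 8 to 10, and 0 markers passed also at an adjusted p of 0.10, against 3 at an unadjusted p under 0.05. The count with groups apart was 7 to 8 when single arrays were left out, where it could only stay or rise. It was 7 with cyclic loess, 6 with quantile normalization and 4 with median centring of each array, which kept Adgre1, Csf1r, Itgam and Ms4a6d apart. Left out singly, arrays moved the difference of Cx3cr1 to between -0.07 and 0.16 and that of Ccr2 to between -0.10 and 0.13. The median of the 10 ranged from -0.37 to -0.21 when single arrays were left out, with -0.21 without WT 3, and was -0.11 in WT 1 against Tg 1 and Tg 3. Ccr2 changed sign without WT 1 (-0.10), without Tg 2 (-0.01) and between the arrays with tract signal (-0.04), and Cx3cr1 without WT 1 (-0.04), without Tg 1 (-0.07) and between the arrays with tract signal (-0.15). Without the arrays with tract signal, Ccl2 (-0.13), Ccl7 (-0.02), Icam1 (0.02) and Plac8 (0.02) changed sign, and Spi1 read 0.13 in those with it. Ms4a4a read -0.02 without Tg 2, -0.06 without Tg 3, -0.17 without WT 3 and -0.26 without the arrays with tract signal. The cause of these changes was not tested. With the replicate block the median stayed at -0.30, and 4034 rows had an unadjusted p under 0.05 against 4263 without it. Same-numbered arrays deviated from their group means with correlations of -0.0384, 0.00726 and -0.0425 across rows, and no array correlated best with its own number. Deviations from a mean of 3 arrays cancel within each group, so these values cannot exclude a pairing. Each marker had 1 row, so averaging the rows of a gene left every value as it was.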
